A study of Arabidopsis thaliana with 27 samples.

Results

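The alpha- and beta-tubulin genes described here are TUA2 to TUA6 (alpha-tubulins) and TUB1, TUB2, TUB5, TUB6 and TUB8 (beta-tubulins), 10 of the 15 alpha- and beta-tubulin genes of Arabidopsis. They were chosen by the large rise of TUA6 in the RAD of dormant (D) seeds, read here as that between 3 and 24 HAS (hours after sowing). The table of 21313 genes held 7 of the 10, each with its identifier in the table, namely TUA2 (AT1G50010_at), TUA4 (AT1G04820_at), TUA6 (AT4G14960_at), TUB1 (AT1G75780_at), TUB5 (AT1G20010_at), TUB6 (AT5G12250_at) and TUB8 (AT5G23860_at). TUA3 (AT5G19770_at), TUA5 (AT5G19780_at) and TUB2 (AT5G62690_at) had no value and were not analysed here. In the reference annotation TUA3 and TUA5 are neighbours, as are TUB2 and TUB3, with 0 protein-coding genes between them, and none of these 4 was in the table. All samples came from D seeds of the accession Cvi. They were whole dry seeds and 2 dissected parts of seeds kept in water, at 4 times, namely 3, 7, 12 and 24 HAS. MCE stands for the endosperm of the micropylar and chalazal ends, and RAD for the radicle together with the hypocotyl. Each of the 9 samples had 3 replicate arrays. The labels say that the plants were grown in 3 replicates but not which array came from which plants, so the p-values measure the spread between arrays.

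Microtubules are hollow polymers of heterodimers, each made of an alpha- and a beta-tubulin. In growing plant cells the cortical microtubules lie under the plasma membrane and guide the cellulose synthase complexes, which sets the direction in which a cell expands. In dividing cells the same subunits build the spindle and the phragmoplast. In germinating seeds the axis elongates before the radicle protrudes through the endosperm, and microtubule arrays are known to be rebuilt after imbibition. TUA2 and TUA4 encode the same protein, and changes in TUA4 and TUA6 are known from mutants that twist as they grow. TUA6 and TUB6 fused to a fluorescent protein are common reporters of microtubules. The tubulin genes are close in sequence, and how far probes of one gene also bind RNA of another was not tested.

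The values are log2 levels from Affymetrix ATH1 arrays, on which each array measured the RNA of 1 sample. Following the study, a mean above 5 was read as expression and lower values as not distinguishable from noise. For fold changes, means below 4 were raised to 4. Replicate arrays correlated at 0.987 to 0.996 across genes. EPR1, an extensin-like gene of the endosperm, was at 13.53 to 13.89 on all D MCE arrays and at 6.16 to 7.45 on all D RAD arrays. PLT2, a transcription factor of the root meristem, was at 2.92 to 3.52 in the D MCE and at 4.15 to 5.16 in the D RAD. SCR, a transcription factor of the root endodermis and the axis marker with the highest values, overlapped between the D MCE (6.55 to 8.37) and the D RAD (7.64 to 8.33), and PIN7 was lower in the D RAD by -0.53 at 7 HAS and -0.89 at 12 HAS (limma adjusted p = 0.0269 and 0.000445). Of the 7 embryo axis markers, 2 had all D RAD arrays above all D MCE arrays, and 4 were below 5 on every imbibed array, as were SUC5 and ALE1, 2 of the 3 endosperm markers measured, so that the axis markers say little about the labels. The RAD samples went through a column kit (Absolutely RNA Nanoprep), whereas a hot borate procedure with a clean-up step served for MCE samples and dry seeds, so compartment and isolation method cannot be told apart. In bulk tissue, fewer cells of a type and less RNA per cell cannot be told apart either.

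In the D RAD, the levels of 4 of the 7 measured genes went from below 5 at 3 HAS to clear expression at 24 HAS. The contrast of 24 with 3 HAS in the D RAD chose these genes, so it is described without a test. TUA6 was at 3.65, 3.85 and 3.39 on the 3 arrays at 3 HAS and at 8.89, 9.55 and 9.10 at 24 HAS. The difference was 5.55 (standard error 0.274), and 5.18 when the mean at 3 HAS was raised to the floor of 4. No array at 24 HAS came near those at 3 HAS.

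TUA2 was at 4.45, 4.56 and 4.69 in the D RAD at 3 HAS and at 8.94, 9.69 and 9.50 at 24 HAS, a difference of 4.81 (standard error 0.179). TUA4 was at 4.09, 4.09 and 4.51 at 3 HAS and at 7.41, 8.07 and 8.05 at 24 HAS, a difference of 3.61 (standard error 0.233). TUB6 was at 4.20, 4.30 and 4.37 at 3 HAS and at 6.23, 6.39 and 6.13 at 24 HAS, a difference of 1.96 (standard error 0.171). For each of these genes all arrays at 24 HAS were above all arrays at 3 HAS. The 3 alpha-tubulins and TUB6 differed by at least 2-fold, while 7.36% of all genes rose by at least 2-fold over this interval by means alone. The choice of genes used this contrast, and nothing is read from the count.

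The genes differed in when the level moved in the D RAD. TUA6 was at 6.38, 7.15 and 7.15 at 7 HAS and at 8.51, 8.72 and 9.02 at 12 HAS. It had covered 58.8% of its log2 difference between 3 and 24 HAS by 7 HAS and 92.2% by 12 HAS, or 55.8% and 91.6% with means below 4 raised to 4. TUA4 moved late, with 4.42, 4.82 and 4.59 at 7 HAS and 5.02, 5.74 and 5.66 at 12 HAS, which were 10.5% and 34.4% of its difference. The course of TUA2 lay between them. It was at 6.18, 6.06 and 6.27 at 7 HAS and at 7.55, 7.91 and 8.01 at 12 HAS, which were 33.3% and 67.7%. TUB6 had covered 41.4% and 66.3%. From 12 to 24 HAS the arrays of TUA6 overlapped (difference 0.43), whereas those of TUA4 (2.37), TUA2 (1.56) and TUB6 (0.66) did not. No test of these shares was made.

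**Figure D1:**
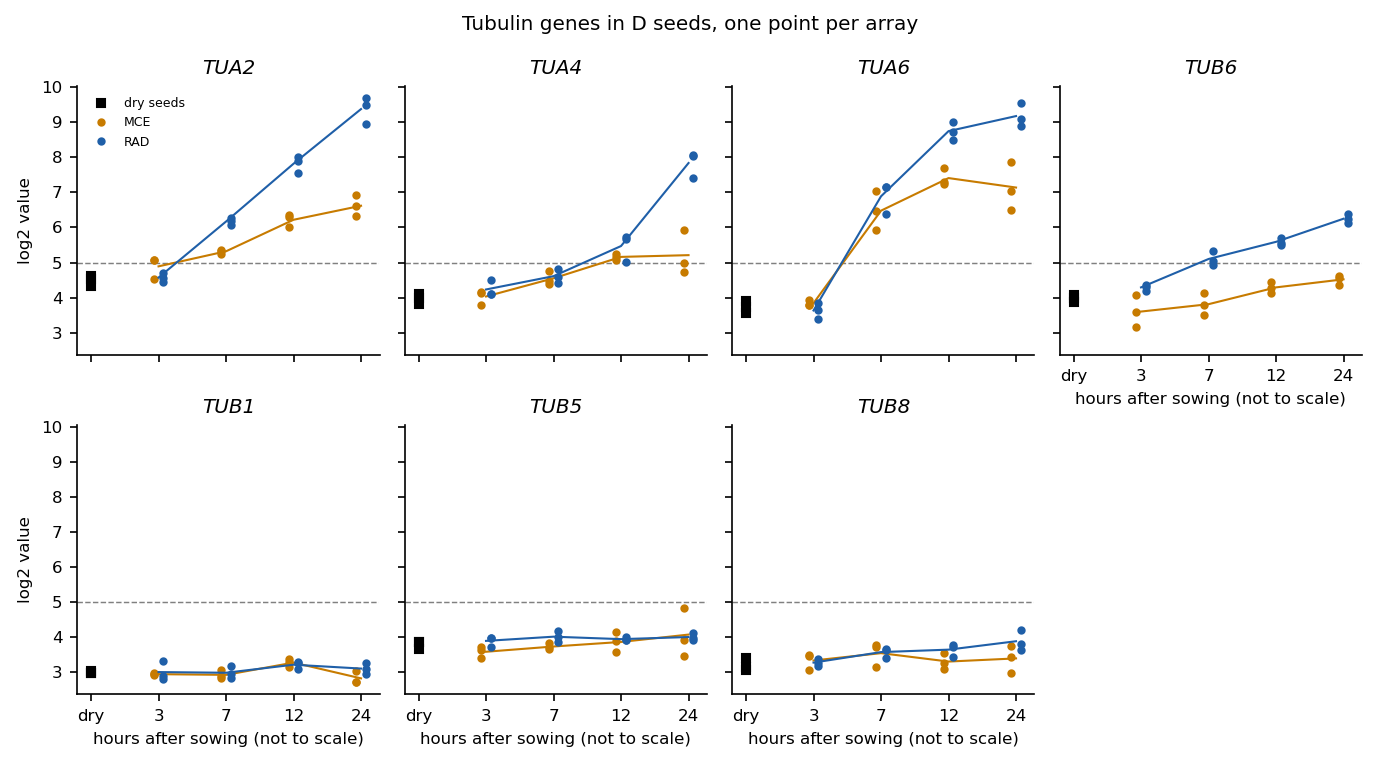
Log2 values of the 7 measured genes on the y axis for dry seeds and at 3, 7, 12 and 24 HAS on the x axis (not to scale), with 1 point per array, lines through the means of 3 arrays, and a dashed line at 5. TUA6 goes from 3.63 to 9.18 in the D RAD and from 3.84 to 7.14 in the D MCE, while TUB1, TUB5 and TUB8 stay below the dashed line on all 27 arrays.

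The interval between 7 and 12 HAS in the D RAD used no array of that contrast. It was tested for the 6 genes other than TUA6. The interval lies within the rise of TUA6 by which the genes were chosen, so its p-values are not independent of that choice. TUA2 rose by 1.65 (standard error 0.179, limma adjusted p = 1.86e-06) and TUA4 by 0.86 (standard error 0.233, limma adjusted p = 0.0271), and 0 of the 6 fell. Among all genes, 2.36% rose and 2.74% fell. The rise of TUA2 was past the test without any single array. That of TUA4 was not, with 0.73 and an adjusted p of 0.143 without D RAD 12 HAS replicate 2, 0.77 and 0.126 without replicate 3, 0.77 and 0.141 without D RAD 7 HAS replicate 1, and 0.85 and 0.0697 without replicate 3. TUB6 differed by 0.49 (standard error 0.171, limma adjusted p = 0.11). TUA6, given as a description only, differed by 1.85.

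The genes were chosen for a rise in the D RAD, but with earlier results of these data known. The D MCE p-values can therefore not be taken as independent of the choice. The question was which of the tubulins also changed in the D MCE. Between 3 and 24 HAS TUA6, TUA2, TUA4 and TUB6 rose and none fell, so that 4 of 7 rose and 0 fell where 18.8% of all genes rose and 16.8% fell. The change of TUA6 was the largest of the 7. It was at 3.94, 3.80 and 3.79 at 3 HAS and at 7.87, 7.04 and 6.5 at 24 HAS, a rise of 3.29 (standard error 0.274, limma adjusted p = 4.93e-10). With the mean at 3 HAS raised to the floor of 4 the difference was 3.14. All arrays at 24 HAS were above 6 and all arrays at 3 HAS were below 4.

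TUA2 was at 5.07, 4.53 and 5.08 at 3 HAS in this compartment and at 6.92, 6.62 and 6.32 at 24 HAS, and rose by 1.73 (standard error 0.179, limma adjusted p = 1.94e-08). TUA4 was at 4.16, 4.14 and 3.79 and then at 5.93, 4.98 and 4.73, and rose by 1.18 (standard error 0.233, limma adjusted p = 0.000201). TUB6 was at 3.59, 3.15 and 4.07 and then at 4.37, 4.62 and 4.55, and rose by 0.91 (standard error 0.171, limma adjusted p = 0.000109). The arrays at the 2 times did not overlap for any of these genes, but TUB6 stayed below 5 throughout, where noise limits the size of its change, and TUA4 was above 5 at 24 HAS on replicate 1 alone. These 4 calls held when any single array was left out. With the methods' t-test after adjustment, TUA4 (adjusted p = 0.115) and TUB6 (adjusted p = 0.098) were no longer past the test.

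Most of the change of TUA6 in the D MCE fell between 3 and 7 HAS. It was at 7.04, 6.46 and 5.94 at 7 HAS and rose by 2.64 (standard error 0.274, limma adjusted p = 5.94e-08), the only one of the 7 to pass the test, where 15.2% of all genes rose and 11.7% fell. By 7 HAS it had covered 80.1% of its log2 rise (79.1% with means below 4 raised to 4), TUA4 43.6% and TUA2 24.8%. TUA4 was below 5 on all D MCE arrays at 3 and 7 HAS and differed by 0.51 (standard error 0.233, limma adjusted p = 0.11), so noise limits its share. TUB6 was near or below 4 at both times, and no share is given. TUA2 was at 5.33, 5.37 and 5.25 at 7 HAS, a difference of 0.43 from 3 HAS (standard error 0.179, limma adjusted p = 0.0812), with no overlap between the arrays.

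In the next interval, 7 to 12 HAS, 2 of the 7 rose in the D MCE, where 6.42% of all genes rose and 5.62% fell. TUA2 was at 6.0, 6.30 and 6.36 at 12 HAS, a rise of 0.90 (standard error 0.179, limma adjusted p = 0.00121), and TUA6 at 7.69, 7.25 and 7.3, a rise of 0.94 (standard error 0.274, limma adjusted p = 0.0245). The call of TUA2 held without any single array, whereas TUA6 was not past the test without D MCE 12 HAS replicate 1 (0.80, adjusted p = 0.0936) or 3 (0.99, 0.0541) or D MCE 7 HAS replicate 2 (0.93, 0.0641) or 3 (0.66, 0.147). TUB6, at a difference of 0.48 (limma adjusted p = 0.0702), was past it without D MCE 7 HAS replicate 1 (0.64, adjusted p = 0.0277).

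From 12 to 24 HAS in the D MCE none of the 7 rose, where 2.86% of all genes did. TUA6 differed by -0.28 (standard error 0.274, limma adjusted p = 0.787) and TUA2 by 0.40 (standard error 0.179, limma adjusted p = 0.295), both with overlapping arrays. TUB1 alone passed the test, with a fall of -0.45 (standard error 0.131, limma adjusted p = 0.0496), where 1.42% of all genes fell. It went from 3.29, 3.37 and 3.15 to 3.02, 2.72 and 2.73, all below the floor of 4. Its adjusted p lay above the threshold without any one of D MCE 12 HAS replicates 1, 2 and 3 (0.138, 0.184 and 0.0604) or D MCE 24 HAS replicates 2 and 3 (0.221 and 0.187).

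The embryo axis markers moved in the D MCE as well. The log2 of their summed level over the 7 genes was 7.25 to 7.38 on the D MCE arrays at 3 HAS and 8.19 to 8.68 at 24 HAS, against 8.44 to 8.53 in the D RAD at 24 HAS. SCR rose by 1.45 (limma adjusted p = 1.28e-08), and PIN7 by 1.42 (limma adjusted p = 1.31e-06). None of the 7 was at 0, but PLT2 lay below 4 on every D MCE array and did not pass the test between 3 and 24 HAS (-0.25, limma adjusted p = 0.289). The part of other cells in the tubulin values was not tested beyond this. In the D RAD the endosperm marker EPR1 fell between 3 and 24 HAS by -0.83 (limma adjusted p = 0.000318), and the summed level of the 3 measured endosperm markers was 7.14 to 7.63 at 3 HAS and 6.47 to 7.17 at 24 HAS.

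**Figure D2:**
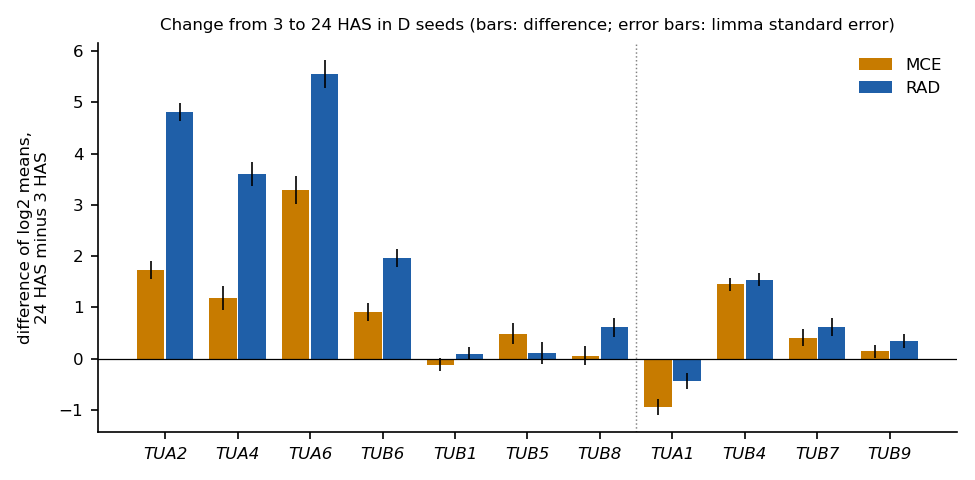
Bars show the difference of log2 means between 24 and 3 HAS for each tubulin gene on the x axis, in the D MCE and the D RAD, with limma standard errors from 3 arrays per sample as error bars; genes right of the dotted line are tubulins outside the chosen set. The bars of TUA6 reach 3.29 (D MCE) and 5.55 (D RAD), and TUA1 is below 0 in both.

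TUB1, TUB5 and TUB8 were not above 5 on any of the 27 arrays, so a change in expression was not detectable at these levels. TUB1, known for its expression in roots, lay between 2.72 and 3.37. TUB5 lay between 3.41 and 4.84, and its highest array was D MCE 24 HAS replicate 1. TUB5 differed by 0.49 between 3 and 24 HAS in the D MCE (standard error 0.206, limma adjusted p = 0.0674), and by 0.80 (adjusted p = 0.00164) without D MCE 24 HAS replicate 3, which was at 3.45. TUB8 lay between 2.98 and 4.19. Its 3 D RAD arrays at 24 HAS, at 3.64, 4.19 and 3.81, were above those at 3 HAS, at 3.37, 3.17 and 3.25, a difference of 0.61 that is 0 when means below 4 are raised to 4.

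Before 3 HAS no member changed past the test. From dry seeds to the D MCE at 3 HAS the count was 0 in both directions with limma and 0 with the methods' t-test after adjustment, where 15.2% of all genes rose and 14.9% fell. Each member had a mean below 5 in both of these samples, where values were read as not distinguishable from noise. The count of 0 therefore does not show that the levels of the members stayed the same. At an unadjusted limma p under 0.05, 1 member was higher and 1 lower. TUA6 was at 3.55, 3.90 and 3.73 in dry seeds and 0.11 higher in the D MCE at 3 HAS (standard error 0.274, limma adjusted p = 0.821). TUA2 was at 4.34, 4.61 and 4.53 in dry seeds and 0.40 higher in the D MCE (limma adjusted p = 0.099), and past the test without D MCE 3 HAS replicate 2 (0.58, adjusted p = 0.0219). TUB6 was at 3.99, 3.87 and 4.06 in dry seeds and differed by -0.37 in the D MCE (limma adjusted p = 0.107), and by -0.61 (adjusted p = 0.0062) without D MCE 3 HAS replicate 3. Dry seeds were whole seeds, so this comparison also spans a change of tissue. The D RAD at 3 HAS differed from dry seeds by -0.10 for TUA6 and 0.07 for TUA2, with overlapping arrays and no test.

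The compartments were compared at 7 and 12 HAS for the 6 genes other than TUA6. The D RAD arrays at these times were not those at 3 and 24 HAS but lie within the rise of TUA6. The p-values are thus not independent of the choice of genes. TUA6 itself was chosen for its rise in the D RAD and is described without a test. At 7 HAS TUA2 was higher in the D RAD by 0.85 (standard error 0.179, limma adjusted p = 0.000333) and TUB6 by 1.30 (standard error 0.171, limma adjusted p = 6.99e-07), so that 2 of 6 were higher and 0 lower, where 20.5% of all genes were higher in the D RAD and 20.1% lower. TUB6 was at 4.94, 5.33 and 5.04 in the D RAD and at 4.13, 3.5 and 3.79 in the D MCE. No D MCE array of TUA2 or TUB6 reached a D RAD array. TUA6 differed by 0.41 (standard error 0.274), and its arrays overlapped.

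At 12 HAS 2 of 6 were higher in the D RAD and 0 lower, where 20.9% of all genes were higher and 20.8% lower. TUA2 was higher by 1.60 (standard error 0.179, limma adjusted p = 4.46e-08) and TUB6 by 1.30 (standard error 0.171, limma adjusted p = 6.01e-07). TUB6 was at 5.70, 5.51 and 5.56 in the D RAD and at 4.27, 4.13 and 4.45 in the D MCE. TUA6, untested, differed by 1.33 (standard error 0.274). The arrays of the compartments did not overlap for these genes, and the calls of TUA2 and TUB6 at 7 and 12 HAS held without any single array. TUA4 differed by 0.06 at 7 HAS (standard error 0.233, limma adjusted p = 0.861) and by 0.32 at 12 HAS (standard error 0.233, limma adjusted p = 0.299), with overlapping arrays at both times.

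Whether the change from 7 to 12 HAS differed between the compartments was tested as an interaction. None of the 6 genes passed in either direction with limma, where 0.343% of all genes changed more in the D RAD and 0.474% less. TUA2 changed by 0.75 more in the D RAD (standard error 0.253, limma adjusted p = 0.185), the only one of the 6 at an unadjusted p under 0.05, with limma and with the methods' t-test. TUA6, not tested here, changed by 0.92 more in the D RAD. At 24 HAS, described only, the D RAD was above the D MCE by 2.76 for TUA2, 2.63 for TUA4, 2.05 for TUA6 and 1.74 for TUB6, with no overlap of arrays, where the D RAD exceeded the D MCE by 2-fold or more for 6.25% of all genes. At 3 HAS these differences were -0.33, 0.20, -0.21 and 0.69.

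**Figure D3:**
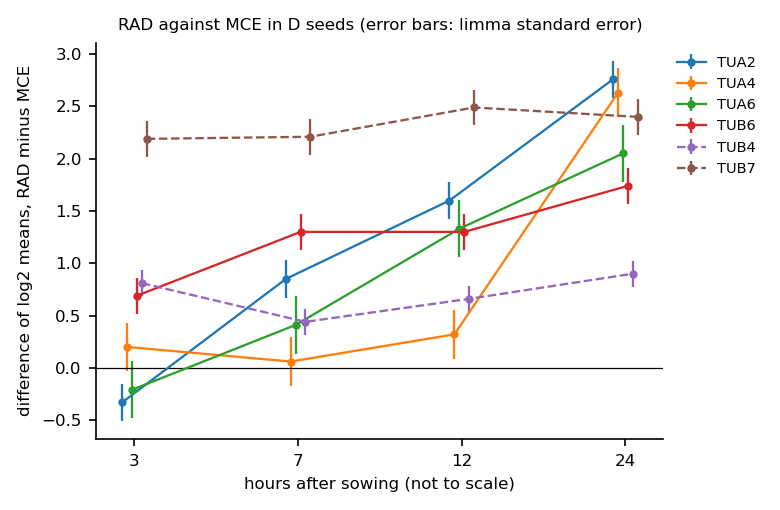
Difference of log2 means, D RAD minus D MCE, on the y axis at 3, 7, 12 and 24 HAS on the x axis (not to scale), for members (solid lines) and 2 further beta-tubulins (dashed lines), with limma standard errors from 3 arrays per sample. TUA2 goes from -0.33 at 3 HAS to 2.76 at 24 HAS, TUA4 stays at 0.32 or less until 12 HAS, and TUB7 lies between 2.19 and 2.49 at all 4 times.

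The order of the 9 sample means restates the values above without a test. Its top place is the D RAD at 24 HAS, which belongs to the contrast that chose the genes. TUA6 was highest in the D RAD at 24 HAS (9.18) and 12 HAS (8.75), whose arrays overlapped, followed by the D MCE at 12 HAS (7.41), from which the D RAD at 12 HAS was set off without overlap. The D MCE at 12 and 24 HAS (7.14) and the D RAD (6.89) and D MCE (6.48) at 7 HAS formed a run in which each sample overlapped with the next. The D MCE at 3 HAS (3.84), dry seeds (3.73) and the D RAD at 3 HAS (3.63) overlapped in turn. TUA2 had the D RAD at 24 HAS (9.38), the D RAD at 12 HAS (7.82) and the D MCE at 24 HAS (6.62) at the top, each apart from the one before. TUA4 stood out in the D RAD at 24 HAS (7.84), and the next sample was the D RAD at 12 HAS (5.47), which overlapped with the D MCE at 24 HAS (5.21). TUB6 was highest in the D RAD at 24 HAS (6.25), 12 HAS (5.59) and 7 HAS (5.10), and its mean was above 5 in these 3 samples alone.

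Outside the tubulins, the genes whose 9 sample means followed those of TUA6 most closely, among 9949 genes with a mean above 6 in some sample, were PEX11D (AT2G45740), a gene of peroxisome division, with a Pearson correlation of 0.993, PRA8 (AT3G13720, 0.988), a prenylated Rab acceptor, APG1 (AT3G63410, 0.985), a gene of plastoquinone and vitamin E synthesis in plastids, AT1G15470 (0.984) and ALDH22A1 (AT3G66658, 0.984). The means of PEX11D at 3 and 24 HAS were 6.88 and 8.43 (D MCE) and 6.99 and 9.15 (D RAD). Within the family and over the same 9 means, TUA6 correlated at 0.925 with TUB4, 0.916 with TUA2, 0.812 with TUA4, 0.805 with TUB8, 0.787 with TUB6, 0.653 with TUB9, 0.612 with TUB5, 0.449 with TUB1, 0.361 with TUB7 and -0.344 with TUA1, of which TUB8, TUB5 and TUB1 were never above 5. These are descriptions with no test, and both genes of each pair were read on the same arrays.

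Of the other 5 alpha- and beta-tubulin genes, TUB3 was not in the table, and TUA1 (AT1G64740), TUB4 (AT5G44340), TUB7 (AT2G29550) and TUB9 (AT4G20890) were above 5 on all 27 arrays, dry seeds included. In the D MCE 1 of the 4 rose and 1 fell between 3 and 24 HAS, where 18.8% of all genes rose and 16.8% fell. TUB4 was at 8.47, 8.50 and 8.50 at 3 HAS in the D MCE and at 10.13, 9.92 and 9.78 at 24 HAS, and rose by 1.45 (standard error 0.124, limma adjusted p = 6.83e-10). It had covered 93.9% of this log2 rise by 7 HAS. TUA1, an alpha-tubulin best known from pollen, fell by -0.94 (standard error 0.154, limma adjusted p = 2.05e-05). TUA1 was at 7.89, 7.87 and 7.65 at 3 HAS in this compartment and at 6.83, 7.04 and 6.73 at 24 HAS, which is opposite in direction to TUA2, TUA4 and TUA6. From dry seeds to the D MCE at 3 HAS, TUA1 was higher by 0.87 (limma adjusted p = 6.41e-05).

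For TUB7 all D RAD arrays were above all D MCE arrays at each of the 4 times. At 7 HAS it was at 7.95, 8.16 and 7.73 in the D RAD and at 6.12, 5.73 and 5.36 in the D MCE, a difference of 2.21 (standard error 0.170, limma adjusted p = 6.12e-11), and at 12 HAS the difference was 2.49 (limma adjusted p = 6.58e-12). Dry seeds, at 6.90 on every array, lay between the compartments, and the D MCE at 3 HAS was lower by -1.36 (limma adjusted p = 4.93e-07). Between 3 and 24 HAS in the D MCE TUB7 differed by 0.41 (limma adjusted p = 0.0621), and by 0.52 (adjusted p = 0.0326) without D MCE 24 HAS replicate 3. TUB4 was higher in the D RAD by 0.44 at 7 HAS and 0.66 at 12 HAS (limma adjusted p = 0.00526 and 7.78e-05). TUB9 was higher by 0.40 at 7 HAS (limma adjusted p = 0.0178) and 0.67 at 12 HAS (limma adjusted p = 0.000197), of which the first was not past the test without D MCE 7 HAS replicate 2 (0.38, adjusted p = 0.0556) or 3 (0.28, 0.134) or D RAD 7 HAS replicate 3 (0.37, 0.0587).

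**Figure D4:**
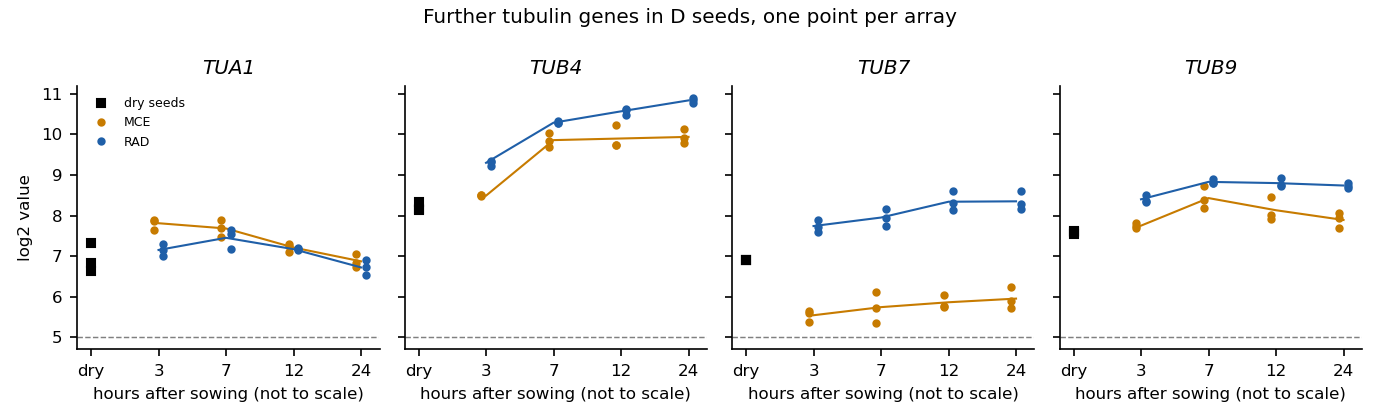
Log2 values on the y axis of the 4 measured tubulin genes outside the chosen set, for dry seeds and at 3, 7, 12 and 24 HAS on the x axis (not to scale), with 1 point per array, lines through the means of 3 arrays, and a dashed line at 5. All points lie above the dashed line, TUB7 is separated by compartment at each time, and TUA1 goes down to 6.87 (D MCE) and 6.72 (D RAD) at 24 HAS.

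Genes that act with tubulin were followed in 5 lists with 53 genes, of which 46 were in the table. The lists were drawn up with earlier results of these data known, so their counts and p-values are not independent of that choice. Between 3 and 24 HAS 21 of these rose and 4 fell in the D MCE, where 18.8% of all genes rose and 16.8% fell. The D RAD had 18 risen and 5 fallen, where 20.3% of all genes rose and 17.9% fell. The tubulin folding cofactors, chaperones that assemble the alpha and beta subunits into a heterodimer, rose together in the D RAD, with 6 of 6, and 3 of 6 rose in the D MCE. Their median difference was 1.01 (D RAD) and 0.56 (D MCE), against -0.04 and -0.05 over all genes. TFCA (AT2G30410), a beta-tubulin chaperone, rose by 1.85 in the D RAD (limma adjusted p = 4.67e-09) and by 1.19 in the D MCE (limma adjusted p = 6.12e-06). TFCD (AT3G60740) rose by 1.48 (limma adjusted p = 5.55e-09) and 0.92 (limma adjusted p = 1.15e-05). EMB2804 (AT3G10220) rose by 1.21 in the D RAD (limma adjusted p = 5.86e-06) and differed by 0.44 in the D MCE (limma adjusted p = 0.0634). TFCE (AT1G71440) rose by 0.68 in the D MCE (limma adjusted p = 0.00444), with an adjusted p of 0.0671 after quantile normalization was applied again.

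In the gamma-tubulin complex, from which new microtubules grow, 5 of 8 listed genes were measured, and the gamma-tubulin genes TUBG1 and TUBG2 were not among them. In the D MCE 4 rose and 0 fell (18.8% and 16.8% of all genes), and in the D RAD 3 rose and 1 fell (20.3% and 17.9% of all genes). GCP4 (AT3G53760), a subunit of the complex, rose from 3.56 to 5.13 in the D MCE (limma adjusted p = 1.46e-07) and from 3.43 to 4.79 in the D RAD (limma adjusted p = 1.15e-06), where it was not above 5 on any array and noise limits the size of the change. GIP1 (AT4G09550), a small protein that binds the complex, rose by 1.14 (limma adjusted p = 3.04e-06) and 1.39 (limma adjusted p = 1.06e-07), and AT5G17410 by 1.0 (limma adjusted p = 1.88e-05) and 0.67 (limma adjusted p = 0.00144).

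Of 20 measured microtubule-associated proteins, 8 rose and 3 fell in the D MCE (18.8% and 16.8% of all genes). The D RAD had 5 risen and 2 fallen, beside 20.3% and 17.9% of all genes. MAP65-1 (AT5G55230), which bundles microtubules, rose from 3.45 to 6.35 in the D MCE (limma adjusted p = 2.56e-11) and from 3.64 to 6.39 in the D RAD (limma adjusted p = 4.52e-11). MAP65-2 (AT4G26760), its close relative, rose from 3.42 to 6.14 in the D MCE, by 2.72 (limma adjusted p = 1.04e-09). In the D RAD it rose from 3.04 to 5.2, by 2.16 (limma adjusted p = 3.65e-08). The means of MAP65-1 and MAP65-2 at 3 HAS were below the floor of 4, where noise limits the size of the change. MAP65-7 (AT1G14690) rose by 1.88 in the D MCE (limma adjusted p = 2.11e-05). MAP65-2 was lower in the D RAD than in the D MCE at 12 HAS, by -1.40 (limma adjusted p = 2.36e-05). WDL3 (AT3G23090), which binds microtubules in the hypocotyl, fell in both compartments. In the D RAD it went from 5.06 to 3.31, below the floor of 4 (-1.76, limma adjusted p = 9.75e-07). In the D MCE it went from 6.31 to 4.56 (-1.75, limma adjusted p = 1.29e-06). Both falls ended below 5, where noise limits their size.

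Of 6 measured actins, which form the other filament system of the cell, 1 rose in the D MCE, 3 did so in the D RAD, and 0 fell in either, beside 18.8% and 20.3% of all genes that rose. ACT7 (AT5G09810), an actin of vegetative tissue, rose by 0.60 in the D MCE (limma adjusted p = 0.000144), and ACT8 (AT1G49240) by 0.76 (limma adjusted p = 1.22e-06) in the D RAD. ACT2 (AT3G18780, 0.37, limma adjusted p = 0.0126) and ACT7 (0.30, limma adjusted p = 0.039) also rose in the D RAD, but neither was past the test when arrays were centred on their medians (0.19 and 0.12, adjusted p = 0.166 and 0.38). ACT2 was also not past it without D RAD 24 HAS replicate 2 (0.33, adjusted p = 0.0586). ACT7 was not without D RAD 24 HAS replicate 1 or 2 (0.28 and 0.21, adjusted p = 0.104 and 0.207) or D RAD 3 HAS replicate 1 or 2 (0.30 and 0.26, adjusted p = 0.0744 and 0.121).

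Of 9 genes of cellulose synthesis, 5 rose and 1 fell in the D MCE (18.8% and 16.8% of all genes). The D RAD had 1 risen and 2 fallen, beside 20.3% and 17.9% of all genes. CSI1 (AT2G22125), which links the cellulose synthase complexes to microtubules, fell by -0.99 in the D RAD (limma adjusted p = 3.77e-05) and COB (AT5G60920), which acts in oriented cell expansion, by -0.79 (limma adjusted p = 1.94e-05). The catalytic subunit CESA3 (AT5G05170) rose by 0.55 in the D MCE (limma adjusted p = 0.00134). The other named calls depended on single arrays. CESA1 (AT4G32410) rose by 0.44 in the D RAD (limma adjusted p = 0.0339), and by 0.31 (adjusted p = 0.186) without D RAD 24 HAS replicate 3, 0.43 (0.0775) without D RAD 3 HAS replicate 2 and 0.40 (0.0978) without replicate 3. CESA9 (AT2G21770), not above 5 on any D MCE array, rose by 0.66 in the D MCE (limma adjusted p = 0.0226), and by 0.63 (0.0691) or 0.50 (0.132) without D MCE 24 HAS replicate 2 or 3, and 0.65 (0.0555) or 0.62 (0.0675) without D MCE 3 HAS replicate 1 or 2. CSI1 fell by -0.53 in the D MCE (limma adjusted p = 0.018), and by -0.47 (0.0712) or -0.40 (0.109) without D MCE 24 HAS replicate 2 or 3, and -0.49 (0.0615) without D MCE 3 HAS replicate 2.

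**Figure D5:**
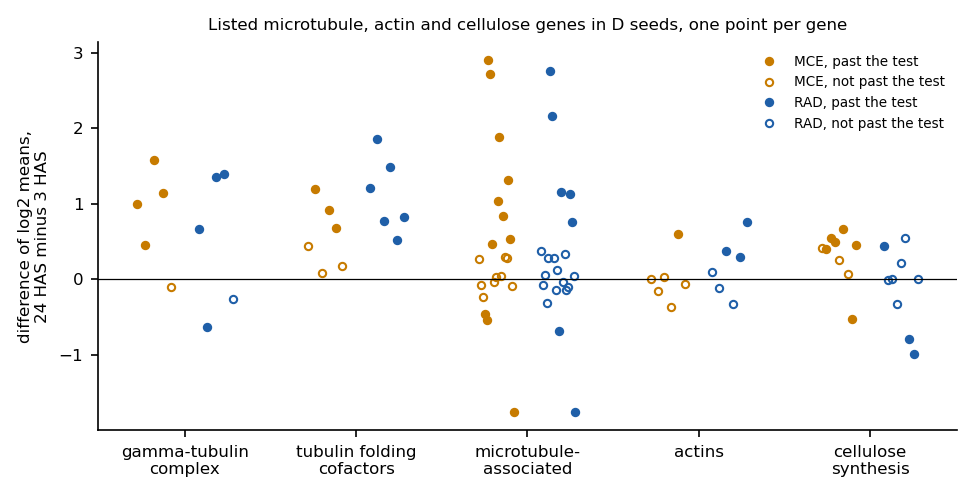
Difference of log2 means, 24 minus 3 HAS, on the y axis for each measured gene of 5 lists on the x axis, with 1 point per gene, in the D MCE and the D RAD; filled points passed the limma test and open points did not. The 6 folding cofactors are all filled and above 0 in the D RAD, and the highest points of the microtubule-associated proteins are MAP65-1, at 2.90 (D MCE) and 2.75 (D RAD).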

How the data were processed

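By the authors' account, the deposited log2 values are RMA values (background correction, quantile normalization, median polish), computed over these arrays jointly with others under a custom chip definition that assigns 1 value to each gene. The deposited table of 21313 genes and 27 arrays was used as it is. Gene symbols and neighbours, and nothing else, were looked up in a RefSeq table (assembly TAIR10.1), where 21205 genes were found. limma (lmFit, contrasts.fit and eBayes) was fitted to all 27 arrays in 9 groups, with 18 residual and 7.246 prior degrees of freedom. The p-values were adjusted by Benjamini-Hochberg over all genes of a comparison, and "rose" and "fell" mean an adjusted p under 0.05. For fold rules, means below 4 were raised to 4. The fit was tested on simulated data. The methods name a t-test without its form, which was run as an alternative with equal variances and in Welch's form.

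The members and lists were chosen with earlier results of these data known, so their p-values cannot be taken as independent of the choice. Contrasts that use the D RAD at 3 or 24 HAS were therefore described without a test for all tubulins, and every contrast with D RAD arrays for TUA6. Named were all tubulins, up to 3 list genes per compartment with the largest change past the test between 3 and 24 HAS, and the 5 genes most like TUA6 in pattern. TUA6 was also the member with the largest change in the D MCE.

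Replicate numbers 1 to 3 recur in each sample. In 2 of 36 pairs of samples, the D MCE at 7 and 12 HAS and at 12 and 24 HAS, same-numbered arrays deviated together at every number (lowest correlation 0.21 and 0.211). The number of arrays, and noise below about 5, limit the precision. Software versions were limma 3.58.1 in R 4.3.3, and pandas 2.3.3, numpy 2.4.6 and matplotlib 3.10.9 in Python 3.11.15.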

Additional observations from a re-analysis of the deposited data

How the results depend on the processing

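No tested value past the threshold, as reported or under an alternative, changed its sign. The count of 4 members risen in the D MCE from 3 to 24 HAS became 2 with a 3-fold rule, the adjusted methods' t-test or Welch's form, and was 4 to 5 without single arrays. From 3 to 7 HAS the count of 1 became 2 with the groups compared alone, the unadjusted t-test or Welch's form (1 to 1 without single arrays). From 7 to 12 HAS the count of 2 became 0 with a 2-fold or 3-fold rule or the adjusted t-test (1 to 3). From 12 to 24 HAS the count of 1 became 0 with a 2-fold or 3-fold rule, the groups alone, the adjusted t-test or a filter on genes above 5 (0 to 1). From dry seeds to the D MCE it was 0 to 1 without single arrays. Between the compartments the count of 2 at 7 HAS became 1 with the 2-fold and 0 with the 3-fold rule (2 to 2), and that of 2 at 12 HAS became 1 with the 3-fold rule (2 to 2). In the D RAD from 7 to 12 HAS the count of 2 became 1 with either fold rule and 0 with the adjusted t-test (1 to 2), and the interaction count of 0 became 1 with the unadjusted t-test (0 to 0). The described D RAD differences from 3 to 24 HAS became 4.38 (TUA2), 2.84 (TUA4), 4.18 (TUA6), 1.25 (TUB6) and 0 (TUB8) with means below 5 raised to 5, and 5.18 (TUA6) and 0 (TUB8) with the floor of 4. Medians gave 3.95 for TUA4. Centring arrays on their medians gave 1.78 for TUB6 and -0.06 for TUB5, whose main value was 0.11. Without single arrays they were 4.66 to 5.03 (TUA2), 3.5 to 3.83 (TUA4), 5.37 to 5.70 (TUA6), 0.0 to 0.26 (TUB1), 0.03 to 0.16 (TUB5), 1.89 to 2.02 (TUB6) and 0.46 to 0.73 (TUB8). The cause of these shifts was not tested. The 25 and 23 list genes changed in the D MCE and the D RAD became 9 and 9 with a 2-fold rule, and 20 to 23 in each without single arrays. With the replicate block the member counts stayed at 4, 1, 2, 1, 0, 2, 2, 2 and 0 in the order above, and the list counts were 28 and 23; among members the block changed no call. Centring moved the median of all genes by -0.21 from 3 to 24 HAS and -0.18 from 3 to 7 HAS in the D MCE, by -0.18 from 3 to 24 HAS in the D RAD, and by 0.11 between the compartments at 7 and 12 HAS. With it TUB1 fell by -0.33 in the D MCE from 3 to 24 HAS (adjusted p = 0.0415), and TUB8 was 0.44 higher in the D RAD at 12 HAS (adjusted p = 0.0431). Over tested single genes, 2117 values kept their sign and their side of the threshold, 99 lost the call, 30 gained it and 42 changed sign, none of them past the test (adjusted p 0.46 to 0.997). With centring they were TUB8 (-0.15) and TUB9 (-0.07) from 3 to 24 HAS and TUB5 (-0.03) from 3 to 7 HAS in the D MCE, and TUB1 (0.05) and TUA1 (0.07) between the compartments at 12 HAS. With quantile normalization again they were TUB1 (0.03) from 3 to 7 HAS in the D MCE, and between the compartments TUB1 (-0.01) and TUB8 (-0.05) at 7 HAS and TUB5 (-0.01) and TUA1 (0.09) at 12 HAS. The other 32 came from leaving out single arrays, and the ranges over all such fits follow. For the D MCE these were -0.12 to 0.26 (TUB8) from 3 to 24 HAS, -0.09 to 0.02 (TUB1) and -0.02 to 0.44 (TUB6) from 3 to 7 HAS, and -0.01 to 0.28 (TUB5), -0.12 to 0.13 (TUB4) and -0.06 to 0.31 (TUB7) from 7 to 12 HAS. From 12 to 24 HAS they were -0.30 to 0.30 (TUA4), -0.65 to 0.04 (TUA6), -0.18 to 0.52 (TUB5), -0.09 to 0.30 (TUB8), -0.05 to 0.21 (TUB4) and -0.05 to 0.21 (TUB7), and TUA4 from dry seeds was at -0.01 to 0.18. Between the compartments they were -0.04 to 0.18 (TUA4), -0.03 to 0.14 (TUB1) and -0.16 to 0.15 (TUB8) at 7 HAS, and -0.12 to 0.01 (TUB1) and -0.07 to 0.22 (TUB5) at 12 HAS. For the D RAD from 7 to 12 HAS they were -0.14 to 0.01 (TUB5) and -0.02 to 0.17 (TUB8), and for the interaction -0.16 to 0.16 (TUB6).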
